A study of Homo sapiens with 18 samples.

Results

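The mRNAs of 8 transcription factors that set hepatic and intestinal cell identity were followed in Caco-2 cells deprived of riboflavin: the nuclear receptors HNF4A and HNF4G, the forkhead factors FOXA1, FOXA2 and FOXA3, the caudal homeobox factors CDX1 and CDX2, and the cut homeobox factor ONECUT2. Their members were the probe sets of the array whose platform symbol was exactly 1 of these genes. This gave 7 of 19775 genes named on the array and 16 of 54675 probe sets, with 2 for HNF4G, 2 for FOXA1, 3 for FOXA2, 1 for FOXA3, 1 for CDX1, 2 for CDX2 and 5 for ONECUT2. HNF4A had 0 probe sets under that rule and was not analysed here. Members were not chosen by their values. Of the 16 probe sets, 9 had a mean log2 value above the limit required for testing, the median over all probe sets, which corresponds to a linear signal of 19.62.

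Caco-2 is a single established human colon carcinoma line that many laboratories use to stand in for absorptive gut cells. Control cells were kept in standard DMEM and depleted cells in DMEM lacking riboflavin (vitamin B2, from which cells make the flavin cofactors FMN and FAD). The culture medium of both contained fetal calf serum and antibiotics, and the labels do not say which arrays, if any, used dialysed serum. RNA was taken at 24, 48 and 72 h, which gave 6 groups of 3 Affymetrix arrays, 18 in all. The sample numbering ran through the 6 groups 3 times, so the arrays form 3 sets with 1 array of each group, and depleted and control arrays of the same set and time make 9 pairs. The labels do not state whether the 3 arrays of a group came from separately grown cells. The p-values below thus reflect the spread among arrays, which may be technical, and the number of arrays limits the precision. Arrays of the same set deviated from their group means together (r of 0.30 to 0.60 over probe sets, 45 pairs of arrays, against -0.75 to 0.16 between sets). Part of this contrast is built in. Each group mean holds 1 array of each set, which pushes values between sets in the same group below 0. Set 2 stood apart, with median signals of 25.7 to 31.3 per array, against 18.4 to 22 for set 1 and 19.1 to 23.3 for set 3. Its highest signal per array was 27380.2 to 31409.8, against 7668.7 to 8574.5 for set 1 and 6904.8 to 8357.9 for set 3. Signals are MAS5 values on a linear scale. Differences are given on the scale of log2(signal + 16), which understates the change of weak probe sets.

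As background, HNF4 proteins are nuclear receptors that bind the promoters and enhancers of many genes for lipoproteins, clotting factors and absorptive functions. FOXA proteins are pioneer factors that can bind compacted chromatin, and they act with HNF4 and CEBP factors in liver and gut endoderm. CDX2 is the main factor of intestinal identity and acts on brush border genes such as sucrase-isomaltase (SI), and its paralogue CDX1 is most abundant in proliferating crypt cells. ONECUT2 belongs to the HNF6 family of developing liver and gut. Caco-2 cells make both enterocyte proteins and several plasma proteins of the hepatocyte.

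Promoter sequences from RefSeq (GRCh38.p14, 250 bases before to 50 after the annotated start) were held for 4 of the 7 genes, FOXA1, FOXA3, CDX2 and ONECUT2. Those of CDX2 and of SI, its textbook target, are shown because the signals of these 2 genes are compared below. Each is read 5′ to 3′ on the strand of its gene, and capitals mark every match to the motifs searched. The CDX2 promoter lies at chr13:27969266-27969565 and the SI promoter at chr3:165078447-165078746, both on the minus strand.
CDX2: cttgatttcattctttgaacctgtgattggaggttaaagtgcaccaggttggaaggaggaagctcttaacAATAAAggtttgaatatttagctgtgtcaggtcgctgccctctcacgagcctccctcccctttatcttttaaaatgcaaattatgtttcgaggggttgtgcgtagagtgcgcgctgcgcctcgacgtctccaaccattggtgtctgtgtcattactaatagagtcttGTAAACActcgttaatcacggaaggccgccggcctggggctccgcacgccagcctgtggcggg
SI: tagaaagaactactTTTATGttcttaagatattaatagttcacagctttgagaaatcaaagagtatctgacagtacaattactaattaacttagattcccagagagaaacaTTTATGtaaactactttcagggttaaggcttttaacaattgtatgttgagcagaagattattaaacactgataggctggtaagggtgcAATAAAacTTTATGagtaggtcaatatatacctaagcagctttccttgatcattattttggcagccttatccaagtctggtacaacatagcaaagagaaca
The motifs, searched on both strands, were TGTTTAC and TATTTAC for FOXA, TTTATG and TTTATT for CDX, the direct repeat known as DR1 and CAAAGTCCA for HNF4, and ATTGAT for ONECUT. The motifs did not overlap one another in the windows shown. Bases are counted from the start site. The CDX2 window held 1 FOXA match, at positions -13 to -7, and 1 CDX match, at -180 to -175. The SI window held 4 CDX matches, and the windows of FOXA1, FOXA3 and ONECUT2 held 0 matches to any of these motifs. Windows were also searched for 17 genes of the lists below that changed, and SI held the most CDX matches. Among CDX2 targets, KLF4 and MUC13 held 0 CDX matches and CEACAM5 held 1. The FOXA targets AFP and CPT1A held 3 and 2. Over 35116 promoter windows of the same length, 5.97% held at least 1 FOXA match, 24.3% at least 1 CDX match, 0.407% at least 1 HNF4 match and 6.26% at least 1 ONECUT match. The matches describe letters in these windows and were not tied to any measured binding.

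No difference between depleted and control cells was called for the 9 tested probe sets. In a limma fit over all 27307 probe sets above the signal limit, 0 of 9 passed a Benjamini-Hochberg adjusted p of 0.05 in the effect of depletion averaged over the 3 times, where 4.26% of all probe sets passed. The same count was 0 of 9 at 24 h (0.216% of all), 0 of 9 at 48 h (0.0806%) and 0 of 9 at 72 h (4.16%). A count of 0 among 9 is near these background shares. With the set as a replicate block the counts stayed at 0 against higher background shares, 15% averaged, 2.37% at 24 h, 0.692% at 48 h and 13.3% at 72 h. At an unadjusted p under 0.05 the counts were 0, 1, 0 and 0 without the block and 1, 2, 0 and 2 with it. The averaged difference of the 9 probe sets ranged from -0.13 (CDX1) to 0.34 (FOXA1 237086_at) with a median of 0.17, and was above 0 for 7 and below 0 for 2. The median over all probe sets tested was 0.02.

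**Figure D1:**
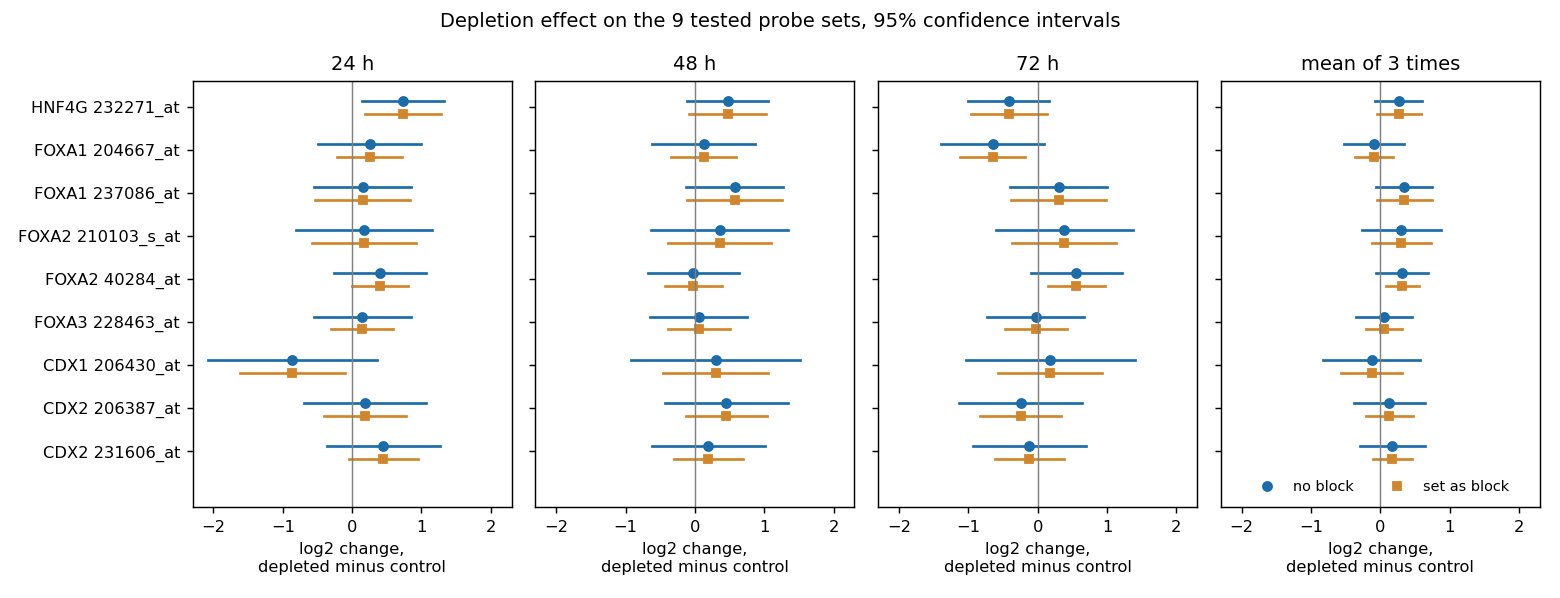
Difference between depleted and control cells on the log2(signal + 16) scale for the 9 tested probe sets, at each time and averaged, with 95% confidence intervals from limma without a block (blue circles) and with the set as block (orange squares). The intervals without a block include 0 throughout, except HNF4G at 24 h, where the interval runs from 0.15 to 1.32.

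HNF4G, the paralogue of HNF4A that is most abundant in the intestine, was read by 2 probe sets. Probe set 232271_at read 35.4, 35.4 and 39.8 in control cells at 24 h (sets 1, 2 and 3) and 86.6, 43.7 and 94.7 in depleted cells. At 48 h the control arrays read 44.2, 48.8 and 25.7 and the depleted arrays 59.6, 68.9 and 51.6. At 72 h the control arrays read 91, 86 and 87.5 and the depleted arrays 93.9, 36.8 and 66.4. Every depleted array lay above every control array at 24 h and at 48 h, while at 72 h the groups overlapped and the tight control values sat among the depleted ones. The order of the group means on the log2 scale, from the lowest, was control 24 h, control 48 h, depleted 48 h, depleted 72 h, depleted 24 h and control 72 h. In that order control 48 h and depleted 48 h were the only neighbours whose arrays did not overlap.

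The difference for HNF4G 232271_at at 24 h was 0.73 (SE 0.28, 95% confidence interval 0.15 to 1.32, 1.66-fold), which did not pass after adjustment over all probe sets (adjusted p = 0.446 by limma). It was higher in 3 of 3 same-set pairs at 24 h and at 48 h, where the difference was 0.47 (SE 0.28, adjusted p = 0.785 by limma). At 72 h it was -0.41 (SE 0.28, adjusted p = 0.513 by limma), higher in 1 pair and lower in 2. Groups of 3 arrays that do not overlap were met in 12.8% of all probe sets at 24 h and in 11.8% at 48 h, against 1 and 2 of the 9 tested here, the other at 48 h being FOXA1 237086_at. At 72 h such separation was found in 23.1% of all probe sets and in 0 of the 9. Averaged over time HNF4G 232271_at differed by 0.26 (SE 0.16, interval -0.07 to 0.60) and was higher in 7 of 9 pairs.

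Within control cells HNF4G 232271_at was 0.98 higher at 72 h than at 24 h (SE 0.28, unadjusted p = 0.00259, adjusted p = 0.296 by limma), and the 3 arrays of 72 h lay above the 3 of 24 h. Such separation was met in 10.5% of all probe sets in that comparison and in 1 of the 9 tested. Within depleted cells the same difference was -0.17 (SE 0.28, interval -0.75 to 0.42), and 0 of the 9 separated there, against 19.8% of all probe sets. The depletion effect therefore ran from above 0 at 24 h to below 0 at 72 h, a change of -1.15 (SE 0.39, unadjusted p = 0.00946, adjusted p = 0.253 by limma). With the set as block the adjusted p was 0.0870 for control cells and 0.0916 for the change, so neither passed. The F-test over the 3 times gave adjusted p = 0.462 for HNF4G without the block and 0.165 with it.

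The second HNF4G probe set, 207456_at, was mostly weak, and above the signal limit on 5 of 18 arrays, all of them at 72 h. In control cells it read 2.3, 9.5 and 8 at 24 h, 1.1, 19.1 and 15.1 at 48 h and 16.3, 31.6 and 22.3 at 72 h. In depleted cells it read 1.1, 6.5 and 11.4 at 24 h, 10.4, 3.9 and 2.5 at 48 h and 25.3, 21.4 and 32 at 72 h. The arrays of 72 h thus lay above those of 24 h in both media. When no signal limit was set, its difference between 72 h and 24 h was 0.80 (SE 0.28, adjusted p = 0.663 by limma) in control cells and 0.94 (SE 0.28, adjusted p = 0.179) in depleted cells. The depleted cells at 24 h were not higher for this probe set (-0.03, SE 0.28), against 0.73 for 232271_at. For 207456_at the difference was -0.31 (SE 0.28) at 48 h and 0.11 (SE 0.28) at 72 h. Its depletion effect changed by 0.14 (SE 0.40) from 24 h to 72 h, against -1.15 for 232271_at.

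**Figure D2:**
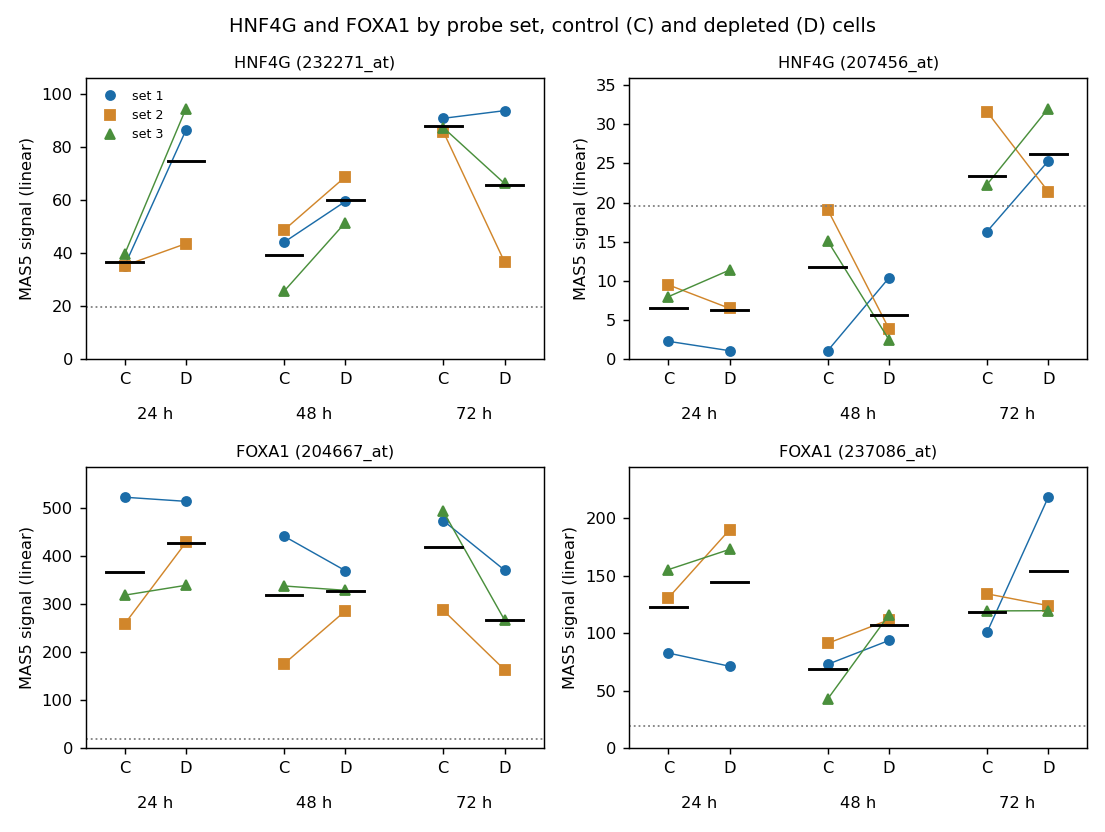
MAS5 signal (linear axis from 0) of both probe sets of HNF4G and of FOXA1 on each of the 18 arrays, control (C) and depleted (D) cells at 24, 48 and 72 h. Lines join arrays of the same set, black bars are means of 3 arrays and the dotted line is the signal limit; HNF4G 207456_at lies above it only on 72 h arrays, and the FOXA1 differences at 72 h are -0.65 for 204667_at and 0.30 for 237086_at.

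FOXA1, a pioneer factor of liver, gut and other endodermal and hormone-responsive epithelia, was read by 2 probe sets. Probe set 204667_at read 523.5, 259.2 and 319.1 in control cells at 24 h and 514.9, 429.3 and 339.7 in depleted cells. At 48 h the values were 442.3, 175.5 and 338.3 in control and 370.3, 286.1 and 329.2 in depleted cells. At 72 h they were 474.6, 287.5 and 494.1 in control and 371.4, 163.5 and 267.4 in depleted cells. The groups overlapped at every time, but at 72 h each depleted array was lower than the control array of its own set. From the lowest, the group means ran depleted 72 h, control 48 h, depleted 48 h, control 24 h, control 72 h and depleted 24 h, and the arrays of all neighbours in that order overlapped.

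At 72 h the difference for FOXA1 204667_at was -0.65 (SE 0.35, interval -1.40 to 0.10, adjusted p = 0.388 by limma), and with the set as block it had an SE of 0.22 and adjusted p = 0.0662. Within depleted cells 72 h minus 24 h was -0.70 (SE 0.35, adjusted p = 0.388 by limma, 0.0578 with the block), lower in 3 of 3 sets. In control cells it was 0.20 (SE 0.35). The averaged difference was -0.09 (SE 0.20, interval -0.52 to 0.34). Probe set 237086_at did not show this pattern. It read 100.7, 134.3 and 119.4 in control and 218.4, 124 and 119.6 in depleted cells at 72 h, a difference of 0.30 (SE 0.33). At 48 h its depleted arrays, 93.7, 111.7 and 116, lay above its control arrays, 72.9, 91.2 and 42.7, a difference of 0.57 (SE 0.33, adjusted p = 0.779 by limma). Across the 18 arrays, with the mean of each set taken away, the probe sets of FOXA1 correlated at 0.08, against 0.66 for the 2 tested probe sets of FOXA2 and 0.26 for those of CDX2 (a description over 18 arrays that share sets and groups).

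FOXA2, the forkhead factor of early endoderm and of gut and pancreas, had 2 tested probe sets. Probe set 40284_at read 68.7, 163.5 and 110 in control and 106.6, 177.7 and 170 in depleted cells at 24 h. At 48 h it read 114.5, 117.3 and 100.6 in control and 95.6, 138.3 and 96.7 in depleted cells. At 72 h it read 85, 151.6 and 110.8 in control and 128.6, 273.8 and 147.6 in depleted cells. Each depleted array was above its control array at 24 h and 72 h, yet the groups overlapped at all 3 times. Set 2 was the highest array in all 6 groups. The averaged difference was 0.31 (SE 0.18, interval -0.07 to 0.69, higher in 7 of 9 pairs, adjusted p = 0.405 by limma). With the set as block the interval was 0.08 to 0.55 and adjusted p = 0.0737, the lowest among the 9 probe sets in that comparison. At 72 h the difference was 0.56 (SE 0.31, adjusted p = 0.403 by limma, 0.0711 with the block).

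The group means of FOXA2 40284_at ran from control 24 h through depleted 48 h, control 48 h, control 72 h and depleted 24 h to depleted 72 h, with overlap between all neighbours. The other tested FOXA2 probe set, 210103_s_at, ranged from 14.5 to 133.5 over the arrays. Its averaged difference was 0.30 (SE 0.27, interval -0.27 to 0.87), with 5 pairs higher and 4 lower. The third, 214312_at, had a mean log2 value below the limit, with values from 1.8 to 73.3, and it passed the limit on 7 of 18 arrays. Its highest reading in set 1 was 27.7, in set 3 21.9, and in set 2 73.3.

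FOXA3, the family member that is most closely tied to metabolic gene expression in liver and gut, read 60.6, 53.4 and 87.4 in control and 84.7, 51 and 94.5 in depleted cells at 24 h. At 48 h it read 64.3, 48.1 and 95.2 in control and 47.9, 65 and 107.7 in depleted cells. At 72 h it read 60.9, 114.1 and 128.4 in control and 81, 72.8 and 142.1 in depleted cells. Set 3 was the highest of its group in all 6 groups, and the media overlapped at each time. The averaged difference was 0.06 (SE 0.19, interval -0.34 to 0.46, adjusted p = 0.927 by limma). At 48 h the sign of the FOXA3 difference depended on the scaling, 0.05 as deposited and -0.07 with arrays centred on the 75th percentile or quantile normalized. FOXA3 means ran from control 24 h, control 48 h, depleted 48 h, depleted 24 h and depleted 72 h to control 72 h, with neighbours overlapping.

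**Figure D3:**
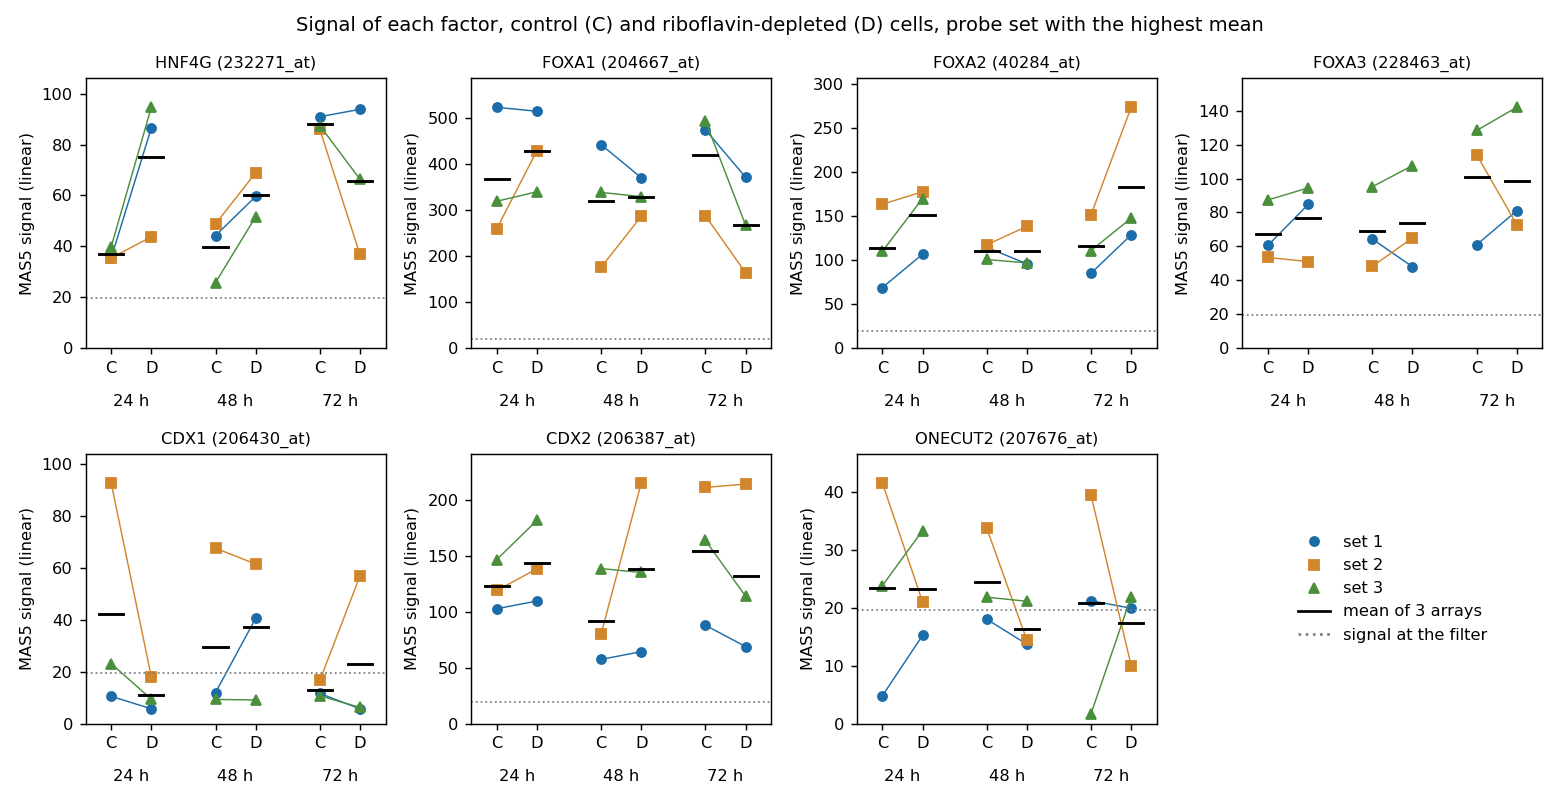
MAS5 signal (linear axis from 0, a scale of its own for each gene) of the 7 genes on each of the 18 arrays, for the probe set of each gene with the highest mean, in control (C) and depleted (D) cells at 24, 48 and 72 h. Colours and symbols are the 3 sets, lines join arrays of the same set and time, black bars are means of 3 arrays, and the dotted line is the signal limit of 19.62. CDX1 is above it on 6 arrays and ONECUT2 207676_at on 11, and both spread to either side of it.

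CDX2 was read by probe sets 206387_at and 231606_at. The former read 102.7, 119 and 146.7 in control and 109.6, 138.4 and 181.7 in depleted cells at 24 h. At 48 h it read 57.4, 80.1 and 138.6 in control and 64.3, 215.1 and 135.1 in depleted cells. At 72 h it read 87.9, 211.2 and 163.7 in control and 68.9, 214.1 and 114 in depleted cells. Depleted arrays were the higher of the pair in 3 of 3 sets at 24 h and in 1 of 3 at 72 h, and the groups overlapped throughout. The averaged difference was 0.13 (SE 0.24, interval -0.38 to 0.64, adjusted p = 0.855 by limma), and at 72 h it was -0.25 (SE 0.42, interval -1.13 to 0.64). From the lowest, its means ran control 48 h, depleted 72 h, control 24 h, depleted 48 h, depleted 24 h and control 72 h, with neighbours overlapping. Probe set 231606_at was weak, from 3.5 to 47.4, and above the signal limit on 12 of 18 arrays. Its averaged difference was 0.17 (SE 0.22, interval -0.30 to 0.64).

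CDX1 read 10.5, 92.6 and 23.1 in control cells and 5.7, 18 and 9.4 in depleted cells at 24 h. At 48 h it read 11.9, 67.5 and 9.3 in control and 40.5, 61.4 and 9.1 in depleted cells. At 72 h it read 11.6, 16.6 and 10.7 in control and 5.7, 56.8 and 6.2 in depleted cells. Only 6 of the 18 arrays were above the signal limit, and 4 of those belonged to set 2, so most readings of CDX1 are weak. At 24 h the difference was -0.86 (SE 0.58, interval -2.08 to 0.36, adjusted p = 0.769 by limma), lower in 3 of 3 pairs. With the set as block its SE was 0.35 and its interval -1.61 to -0.11, and it did not pass (adjusted p = 0.215 by limma). Without the block the difference was 0.30 (SE 0.58) at 48 h and 0.18 (SE 0.58) at 72 h. The averaged difference was -0.13 (SE 0.33, interval -0.83 to 0.58). The means ran from depleted 24 h, control 72 h, depleted 72 h and control 48 h to depleted 48 h and control 24 h, and no neighbours separated.

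ONECUT2 was not tested, since all 5 of its probe sets had mean log2 values below the limit. Probe set 207676_at, just under the limit with a mean log2 value of 5.14 against 5.18 for CDX1 just above it, ranged from 1.7 to 41.5 with a median of 21.05 and was above the limit on 11 of 18 arrays. The other 4, 230271_at, 233441_at, 233446_at and 239911_at, had medians of 4.85, 5.9, 6.05 and 8.45 and passed the limit on 2, 1, 2 and 3 arrays. In control cells 207676_at read 4.8, 41.5 and 23.8 at 24 h, 18, 33.7 and 21.8 at 48 h and 21.2, 39.4 and 1.7 at 72 h. In depleted cells it read 15.2, 21 and 33.3, then 13.7, 14.4 and 21.1, then 19.9, 10 and 21.9. The media overlapped at every time, and a low signal on this array bounds the mRNA only loosely.

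The set of arrays took a larger share of the variance of most FOXA and CDX probe sets than the medium and time did. Set accounted for 50.2% of the variance of FOXA1 204667_at, 46.6% of FOXA2 40284_at, 53.0% of FOXA3, 55.8% of CDX1, 54.5% of CDX2 206387_at and 62.5% of CDX2 231606_at. The median over all 27307 probe sets was 27.7%. The 6 medium-by-time groups took 29.2%, 35.3%, 23.3%, 20.8%, 17.4% and 13.7% of the variance of the same probe sets, with a median of 32.4% over all. These shares are not corrected for the number of means fitted. Noise alone gives the groups a share, and a larger one than it gives the sets, since groups outnumber sets. The group shares of these probe sets are thus not read as effects of medium or time. The groups took more than the set for HNF4G 232271_at, with 6.29% for the set and 62.4% for medium and time. The same held for HNF4G 207456_at, with 9.54% and 68.0%. FOXA1 237086_at also had little set variance (7.78%). The median of CDX2 206387_at was 174.8 in set 2 and 78.4 in set 1. FOXA1 204667_at ran the other way, with 272.65 in set 2 and 458.45 in set 1, so no set was high for every factor. What distinguished the sets is not in the labels.

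Over time, 0 of the 9 probe sets passed in control cells between 24 and 72 h (0.117% of all passed, 1.22% with the block), and 0 of 9 in depleted cells (2.07%, 10.3% with the block). The change of the depletion effect from 24 h to 72 h also gave 0 of 9 (0.645%, 4.58% with the block), as did the F-test over the 3 times (0.311%, 3.49% with the block). At an unadjusted p under 0.05 the first 3 of these comparisons gave 1, 0 and 1 probe sets without the block and 2, 1 and 2 with it. The differences between 72 h and 24 h ranged from -0.74 (CDX1) to 0.98 (HNF4G 232271_at) in control cells and from -0.70 (FOXA1 204667_at) to 0.39 (FOXA2 210103_s_at) in depleted cells.

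The probe sets that followed each factor most closely over the 18 arrays, after the mean of each set was taken away, are given as a description. They share arrays and groups with the factor. For CDX2 206387_at they were those of SIGIRR, an inhibitory receptor of interleukin-1 and Toll-like signalling (r = 0.96), CEBPA, a factor of hepatocyte and enterocyte maturation (0.94), and OAF (0.92). For HNF4G they were the histone gene H2AC25 (0.84), CEP68 (0.83) and MINDY1 (0.82). FOXA1 was followed most closely by HIF1AN, the hydroxylase that restrains HIF activity (0.90), PPP1R21 (0.88) and TRIM10 (0.86), and FOXA2 by USP49 (0.84), ABHD18 (0.83) and CHMP1B (0.82). FOXA3 went with CHORDC1 (0.89), NAA60 (0.89) and the atypical protein kinase C gene PRKCZ (0.87), and CDX1 with ZBTB43 (0.84), SIPA1L3 (0.83) and CINP (0.83). Without removal of the set means, these coefficients ran from 0.08 (CDX1 with CINP) to 0.92 (CDX2 206387_at with SIGIRR), with HNF4G and CEP68 at 0.22. The genes were picked as the highest over all tested probe sets with 1 symbol, which by itself favours high values. CDX1 was above the signal limit on only 6 of the 18 arrays. Between factors the coefficients farthest from 0 were -0.61, for FOXA3 with CDX1, and 0.59, for FOXA2 210103_s_at with CDX2 206387_at.

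CEBPA moved with CDX2 on these arrays but had no called change of its own, with an averaged difference of 0.25 (SE 0.29, adjusted p = 0.732 by limma). It belongs to a list of 32 other hepatic and intestinal transcription factors, of which 20 were tested. Of these 4 rose and 0 fell in the averaged effect, with a list median of 0.23 against 0.02 over all probe sets tested, where 4.26% were called. Those that rose were KLF4, a factor of differentiating epithelium (0.88, SE 0.12, adjusted p = 0.000738 by limma), KLF5, its counterpart in crypt cells (0.74, SE 0.20, adjusted p = 0.0472), CEBPB, an acute-phase and stress factor (0.69, SE 0.14, adjusted p = 0.00907), and ELF3, an epithelial ETS factor (0.64, SE 0.15, adjusted p = 0.0201). KLF5 no longer passed when any of 15 single arrays was removed (18 were tried). CEBPB was at 1.20 at 24 h and 0.36 at 72 h, without a call at either time. KLF4, KLF5 and ELF3 were called at 72 h. In the averaged effect the block gave 5 rises and 0 falls, against 15% called over all. At 72 h the block gave 4 rises and 2 falls, against 13.3% over all. GATA6, a zinc-finger factor that acts beside HNF4 and CDX2 in the gut, differed by 0.19 (SE 0.13) and was not called.

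Genes known as targets of the factors were measured beside them. Among 18 targets of the FOXA factors, 12 were tested, of which 1 rose and 4 fell (median -0.29), against 4.26% called in either direction over all probe sets. Fitted with the block, 1 rose and 6 fell, against 15% over all. AFP, alpha-fetoprotein, fell by 2.23 (SE 0.20), and TFF1, a trefoil peptide, fell by 0.80 (SE 0.14), and so did ALB, serum albumin, by a log2 change of -2.18 (SE 0.26), and APOB, the main apolipoprotein of very low density lipoprotein, by -0.94 (SE 0.23). CPT1A, the carnitine palmitoyltransferase of mitochondrial fatty acid uptake, rose by 0.79 (SE 0.17). The averages hide differences by time. TFF1 was at -1.37 at 24 h and -0.33 at 72 h, and CPT1A at 1.42 at 48 h and 0.27 at 72 h. Neither was called at 72 h, while AFP, ALB and APOB were. AGR2, a protein disulfide isomerase of secretory cells, was at -0.05 (SE 0.10). TTR, the transthyretin gene, was at -0.15 (SE 0.13).

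Among 20 targets of CDX2, 18 were tested, of which 3 rose and 2 fell (median -0.07), against 4.26% called over all probe sets. With the set as block 5 rose and 3 fell, against 15% over all. SI fell by 0.92 (SE 0.14, adjusted p = 0.00165 by limma) and at 72 h fell by 1.89 (SE 0.25, adjusted p = 0.000446), while CDX2 206387_at was at 0.13 and -0.25 in the same comparisons without a call. CLDN2, a pore-forming claudin, also fell, but its call was lost without the depleted 72 h array of set 2, which left 1 fall. CEACAM5, carcinoembryonic antigen, rose by 1.18 (SE 0.19) and MUC13, a membrane mucin, by 0.73 (SE 0.14), the third being KLF4. CDH17 and VIL1, the liver-intestine cadherin and villin, were at -0.03 (SE 0.13) and -0.17 (SE 0.18). The target lists were drawn up with earlier results of these data known, and counts on them describe these genes and no factor's activity. In bulk RNA, fewer cells that express a gene and less RNA per cell cannot be told apart.

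**Figure D4:**
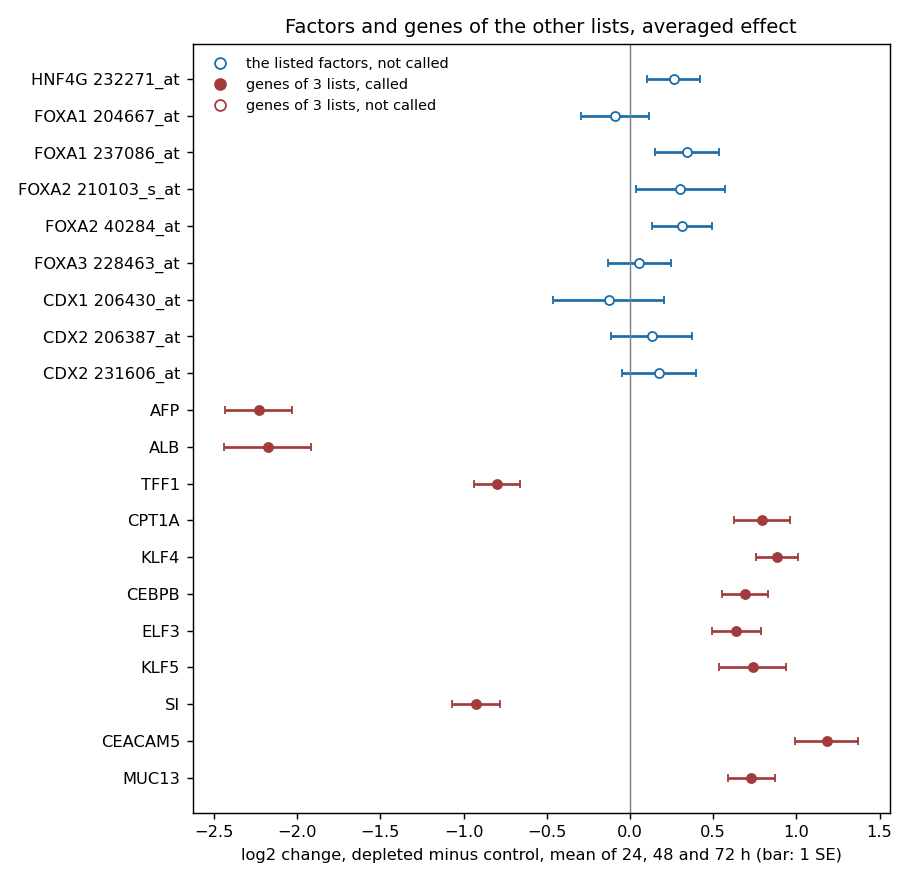
Difference between depleted and control cells averaged over 24, 48 and 72 h, on the log2(signal + 16) scale, for the 9 tested probe sets of the factors (blue) and the named genes of 3 lists (red), with bars of 1 SE. Filled points passed an adjusted p of 0.05. The factors lie between -0.13 and 0.34 with open symbols, and the named list genes between -2.23 and 1.18. The list genes were named by rank of p for this same averaged effect, whereas every tested probe set of the factors is shown. The ranges therefore cannot be compared. Medians over all tested genes of the lists were 0.23 (other factors), -0.07 (CDX2 targets) and -0.29 (FOXA targets).

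Cell type markers were read to check the labelled cell type. The summed signal of the 5 epithelial markers, with EPCAM and CDH1 among them, was 18797 to 31966 on the 18 arrays. The 9 enterocyte markers summed to 3492 to 5366, with LGALS4 and ANPEP below the signal limit. The 9 measured hepatocyte markers summed to 5939 to 10372. The 7 goblet markers summed to 54.1 to 269.6, the 5 enteroendocrine markers to 66.4 to 164, the 7 fibroblast markers to 354 to 749 and the 5 leukocyte markers to 141 to 292, where PTPRC read 1 to 16.6. The enterocyte sum at 72 h lay between 5109 and 5366 on control arrays and between 3492 and 3731 on depleted arrays, beside the fall of SI and FABP1, which are among its members. Of the 7 tested enterocyte markers 0 rose and 2 fell in the averaged effect, of the 5 epithelial markers 0 and 0, and of the 8 hepatocyte markers 0 and 1, where 4.26% of all probe sets were called. Among goblet (2 tested), enteroendocrine (1), fibroblast (4) and leukocyte markers (4) 0 were called. With the set as block, where 15% of all were called, 1 hepatocyte marker (AHSG), 1 enteroendocrine marker (CHGB) and 1 fibroblast marker (LUM) also rose, and 1 fibroblast marker (COL1A1) fell. Whether the share of any cell type bears on the factors was not tested.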

How the data were processed

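Total RNA of 18 Caco-2 samples was labelled with biotin and read on 1-colour Affymetrix arrays. The authors deposited 1 intensity for each of 54675 probe sets, computed with MAS5 per the submitters' processing notes (version not given in the sources used here). The deposited intensities are linear and scaled, with a trimmed mean (2 percent at each end) of 100.01 on the arrays. Raw intensities and detection calls were not used here.

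Signals were used as log2(signal + 16). After removal of 62 control probe sets, those whose mean reached the median, 5.1546, were kept (27307). All 18 arrays were fitted in limma 3.58.1 (R 4.3.3) with 6 group means and without a block. Benjamini-Hochberg adjustment covered all 27307 (threshold 0.05). The fit was tested on simulated data with independent arrays and no set effect. There, 50 probe sets among 27307 were changed for each size of change. The deposited data gave 1162 calls averaged and 1136 at 72 h, and the adjustment is stricter where fewer probe sets change. The shares recovered need not carry over to these data. Of simulated log2 changes of 0.5, it recovered 12% in the averaged effect and 0% at each single time. For changes of 1 it recovered 74% averaged, and 10%, 18% and 6% at 24, 48 and 72 h. A count of 0 calls therefore leaves room for changes of this size. Arrays of the same set correlated at 0.302 to 0.602 after group means were taken away, and all 18 correlated best with their own set, so the numbering of the samples pairs them and the set was also fitted as a replicate block. Figures used Python 3.11.15 and matplotlib 3.10.9.

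Platform annotation gave 1 symbol for 41091 probe sets, several for 1801 and none for 11721. All members are named. From each list of other genes up to 4 were named by rank of p for the averaged effect, by the probe set with the highest mean, and others named were chosen after their values were seen. For likeness the 3 genes with the highest r were named. A further list of target genes is not reported here. The members and the lists were chosen with earlier results of these data known. Alternatives were the pseudocount, the signal limit, the scaling, the block, the arrays fitted and each array or set left out.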

Additional observations from a re-analysis of the deposited data

How the results depend on the processing

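The count of called probe sets stayed at 0 of those tested in each of the 8 comparisons under all alternatives but 1. With the replicate block and without replicate 2, the averaged effect gave 1 call, HNF4G 232271_at at 0.45 (adjusted p = 0.0371 by limma); over its alternatives that difference ran from 0.15 to 0.45. The lowest adjusted p otherwise was 0.0530 for depletion at 72 h and 0.0526 for depleted cells over time, both for FOXA1 204667_at with quantile normalization and the replicate block. The block with all arrays changed no call of the 9 probe sets. Over all probe sets it moved the averaged count from 1162 to 4097, 24 h from 59 to 646, 48 h from 22 to 189, 72 h from 1136 to 3631, the change of the effect from 176 to 1251, control cells over time from 32 to 332, depleted cells from 565 to 2812 and the F-test from 85 to 953. As a random block its consensus correlation was 0.38. Over 2154 alternative values of 63 differences, 106 had the other sign, none of them called. They came from 33 of the 63 differences. Many alternatives could not change a sign. Leaving out an array outside a comparison, or adding the block with all arrays, left the difference as it was. Leaving out 1 array or set moved FOXA2 210103_s_at at 48 h from 0.36 to -0.22 without the control 48 h array of set 2 and to -0.37 without set 2. Without set 1, FOXA1 237086_at in depleted cells over time went from 0.13 to -0.52.

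Over all alternatives the 4 falls among FOXA targets ranged from 1 to 6, the 3 rises and 2 falls among CDX2 targets from 0 to 5 and from 0 to 4, and the 4 rises among other factors from 0 to 7, and the low ends came where a whole set was left out without the block. Of the alternatives, 1 lost the ALB call and none the AFP call. At 72 h, the rises among other factors numbered 3, and 1 with 75th percentile centring. The falls at 72 h numbered 0, and 2 with the block. Signal close to the limit restricts CDX1, CDX2 231606_at and ONECUT2. With 3 arrays a group, the intervals leave room for changes of the size shown in the report.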
